A study of Mus musculus with 30 samples.

Results

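The 9 genes described here are imprinted growth genes: *H19*, *Igf2*, *Dlk1*, *Meg3*, *Peg3*, *Mest*, *Plagl1*, *Cdkn1c* and *Nnat*. They were taken by symbol from a count table of 36103 genes, in which each of the 9 symbols had 1 row. The rule reads the symbol alone, but the set was drawn up with earlier results of these data known. The table came from RNA sequencing of 4 tissues of *Mtm1*-/y mice, a model of X-linked centronuclear (myotubular) myopathy, and of their wild-type (WT) littermates. All mice were males of the 129Pas background, 5 weeks old, and the *Mtm1*-/y animals carry a null allele of the gene for the phosphatase myotubularin in every tissue. The libraries number 4 WT and 4 *Mtm1*-/y for the gastrocnemius, 4 and 3 for the diaphragm, 4 and 4 for the heart, and 3 and 4 for the liver. The design asks how the null allele alters expression in muscle and in other organs.

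Imprinted genes are transcribed mainly from the allele of 1 parent, and many of them set the size of the fetus and are turned down after birth. *H19*, *Meg3* and *Cdkn1c* are read from the maternal allele. *Igf2*, *Dlk1*, *Peg3*, *Mest*, *Plagl1* and *Nnat* are read from the paternal one. Several are abundant in fetal and regenerating muscle and fall as fibres mature. *Igf2* encodes a fetal growth factor, and *H19*, its neighbour, is a long non-coding RNA of muscle. *Dlk1* encodes a membrane protein related to the Notch ligands. *Meg3* is a long non-coding RNA of the same imprinted domain, downstream of *Dlk1* and upstream of *Rian* and *Mirg*. *Peg3* and *Plagl1* encode zinc finger proteins, *Mest* a protein of the α/β hydrolase family, *Cdkn1c* an inhibitor of cyclin-dependent kinases, and *Nnat* a small membrane protein of brain, pancreatic islets and adipose tissue. Gene counts do not separate the parental alleles, so imprinting itself was not measured.

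In the mm10 genome *H19* (ENSMUSG00000000031) lies on the minus strand of chromosome 7 at 142575529 to 142578143. *Igf2* (ENSMUSG00000048583) follows on the same strand at 142650766 to 142666816, and *Cdkn1c* (ENSMUSG00000037664) at 143458339 to 143461050. *Peg3* (ENSMUSG00000002265) is near the other end of that chromosome, minus strand, at 6703892 to 6730431. *Dlk1* (ENSMUSG00000040856) and *Meg3* (ENSMUSG00000021268) share the plus strand of chromosome 12, at 109452823 to 109463336 and 109541001 to 109571726. *Mest* (ENSMUSG00000051855) is on chromosome 6 at 30723547 to 30748465, *Plagl1* (ENSMUSG00000019817) on chromosome 10 at 13060504 to 13131694 and *Nnat* (ENSMUSG00000067786) on chromosome 2 at 157560078 to 157562522, each on the plus strand. *Igf2* shares 3596 exonic bases on its own strand with the read-through gene *Gm49394*, which has no row in the table. Reads from those bases may be missing from *Igf2*, so its level can be understated. *Mest* shares 912 exonic bases with *Copg2* on the opposite strand, and *Nnat* lies within the span of *Blcap*, opposite strand, with 0 exonic bases shared. The library kit keeps the strand, but whether the counting used it is not stated.

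Sequence is shown for *Meg3* and *Dlk1*, which lie in 1 domain and had log2 fold changes of opposite sign in the diaphragm, and for *Peg3*, which rose in the gastrocnemius. RefSeq (GRCm38) gave the 250 bases before a transcription start for 7 of the 9 genes. *Meg3* has 2 windows. The 1 shown, chr12:109540746-109540995 on the plus strand, holds 10 CpG dinucleotides and 1 copy of TGACGTCA, the full cAMP response element. That copy, printed in capitals, ends 49 bases before the start. The other window, chr12:109545148-109545397, has 0 CpG and no copy. The *Dlk1* window, chr12:109452573-109452822 on the plus strand, has 8 CpG and no copy of that element. For *Peg3* the element ends 170 bases before the start, and 30 bases around it, chr7:6730579-6730608 on the minus strand, are shown. Searched on both strands, TGACGTCA occurs in 508 of 32851 such windows of the mouse genome, or 1.55%, and the median window has 6 CpG. The motif was picked after the windows had been read, and a match of letters is not a bound site.
Meg3 upstream window: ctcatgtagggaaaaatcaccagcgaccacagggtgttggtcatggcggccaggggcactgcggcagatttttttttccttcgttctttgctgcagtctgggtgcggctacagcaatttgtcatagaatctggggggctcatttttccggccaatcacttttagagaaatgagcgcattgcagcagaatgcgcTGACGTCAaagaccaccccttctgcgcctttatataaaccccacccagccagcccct
Dlk1 upstream window: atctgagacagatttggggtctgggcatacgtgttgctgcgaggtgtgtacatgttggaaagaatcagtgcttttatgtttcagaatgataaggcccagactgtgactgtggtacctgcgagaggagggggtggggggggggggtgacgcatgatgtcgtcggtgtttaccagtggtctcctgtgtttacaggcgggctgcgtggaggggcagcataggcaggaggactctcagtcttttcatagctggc
Peg3 element: actgactccgtTGACGTCAactccgtgcct

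Some of these transcripts carry microRNAs, small RNAs that pair with target messages through the seed, bases 2 to 8. The 5p arm is shown for 4 hosts, with the seed in capitals, because these microRNAs lie within the transcripts counted here. These are miR-675 in an exon of *H19* (chr7:142577112-142577133, minus strand), miR-483 in an intron of *Igf2* (chr7:142654968-142654989, minus strand), miR-335 in an intron of *Mest* (chr6:30741314-30741336, plus strand) and miR-770 in an exon of *Meg3* (chr12:109563710-109563731, plus strand). The seeds differ from each other, and 0 other mature mouse microRNAs in the RefSeq table share any of them. Poly(A)-selected gene counts do not measure the mature microRNAs.
mmu-miR-675-5p: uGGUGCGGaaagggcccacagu
mmu-miR-483-5p: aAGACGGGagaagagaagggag
mmu-miR-335-5p: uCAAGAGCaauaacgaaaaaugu
mmu-miR-770-5p: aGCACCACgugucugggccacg

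The 30 libraries held 24873817 to 44289343 counts each. Levels are given in CPM, a library's counts scaled to a fixed total, after TMM scaling, the edgeR method that sets library sizes by the bulk of the genes. *Mtm1* itself stood at 15.5 to 27.0 CPM in the WT libraries and at 3.49 to 8.08 CPM in the *Mtm1*-/y libraries, with no overlap in any tissue. Muscle, heart and liver markers were each highest in the tissue named by the label, but *Alb*, the albumin gene of hepatocytes, was present in the diaphragm at 252 to 28581 CPM, against 2.65 to 67.2 CPM in the gastrocnemius. *Alb* passed 10000 CPM in 4 diaphragm libraries, WT 1, 2 and 4 and *Mtm1*-/y 2. The edgeR genotype differences in the diaphragm are therefore also given without those 4. Contrasts between tissues and the DESeq2 calls are not. The labels do not say which libraries came from the same mouse, so the p-values measure the spread between libraries.

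In the WT mice *H19* was by far the most abundant of the 9 genes in skeletal muscle, and each of the other 8 was also detected there. To compare genes, CPM was divided by the length of the merged exons in kilobases. On that scale the gastrocnemius held *H19* at 984 ± 209 CPM per kb (SD, n = 4), ahead of *Cdkn1c* at 22.4 ± 4.96 and *Meg3* at 6.58 ± 0.399 CPM per kb. *Peg3* followed at 4.53 ± 0.379 and *Mest* at 3.66 ± 1.33 CPM per kb. *Nnat* at 2.43 ± 2.94, *Plagl1* at 1.02 ± 0.225, *Dlk1* at 0.642 ± 0.123 and *Igf2* at 0.476 ± 0.174 CPM per kb came last. *Nnat* spread more between libraries than its own mean, so its place in this order is not fixed. The *Igf2* level was divided by all its merged exons, 3596 bases of which *Gm49394* shares. Reads from those may be missing, so its last place is not fixed either.

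**Figure D1:**
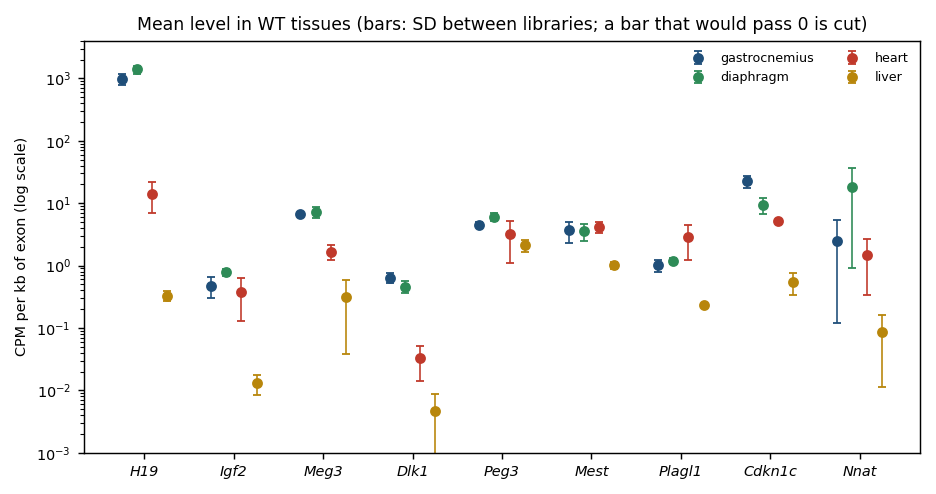
Mean level in the WT libraries of each tissue for the 9 genes, in CPM per kilobase of merged exons on a log axis, with bars of 1 SD (n = 4, liver n = 3). *H19* spans from 1387 CPM per kb in the diaphragm to 0.330 in the liver, while *Peg3* and *Mest* stay within a much narrower range.

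The gastrocnemius and the diaphragm differed in few of these genes. In a fit of the WT libraries, 2 of the 9 genes passed at an adjusted p under 0.05 between the muscles, against 54.4% of all 17725 genes tested, and the count was 1 without WT diaphragm 4 and 4 without WT heart 4. *Cdkn1c*, the kinase inhibitor, stood at 58.3, 40.9, 34.9 and 48.7 CPM in the gastrocnemius and at 26.5, 14.9, 18.4 and 16.4 CPM in the diaphragm. Its diaphragm level was lower by a log2 difference of -1.31 (SE 0.20, adjusted p = 0.00012). *Nnat* was higher in the diaphragm by 2.87 (SE 0.85, adjusted p = 0.0107), with 8.84 to 83.6 CPM against 0.803 to 12.4 CPM. *Adipoq*, the adiponectin gene of adipocytes, was at 46.1 to 238 CPM in the WT diaphragm and 3.79 to 14.7 CPM in the WT gastrocnemius. The part of adipocyte RNA was not tested. Log2 differences of the other 7 genes lay between -0.53 (*Dlk1*) and 0.66 (*Igf2*) and did not pass. Lower RNA of a gene in a whole tissue can mean fewer cells of a type or less RNA per cell, and these cannot be told apart in bulk samples.

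The WT heart held less *H19*, *Meg3*, *Cdkn1c* and *Dlk1* than the gastrocnemius and more *Plagl1*, while *Igf2*, *Peg3*, *Mest* and *Nnat* did not pass. That made 5 of 9 genes (61.3% of all genes tested), and between heart and diaphragm 8 of 9 passed (51.7%), of which *Plagl1* was the 1 that was higher in the heart. *H19* in the WT heart was at 36.7, 12.2, 34.1 and 56.1 CPM, a log2 difference of -6.15 from the gastrocnemius (SE 0.41, adjusted p = 1.96e-08). *Dlk1*, among the genes called in both contrasts, was read with 8, 11, 4 and 3 counts in the WT heart against 87 to 152 counts in the gastrocnemius. It entered the test only through the muscles, where it is higher, so its calls as lower add nothing beyond these counts. *Plagl1* was highest in the heart, at 11.9 to 41.1 CPM, which exceeded the gastrocnemius by 1.45 (SE 0.30, adjusted p = 0.000675). *Mest* did not pass in either contrast, with log2 differences of 0.13 and 0.23.

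In the WT liver all 9 genes passed as lower than in the gastrocnemius (79.5% of all genes tested in either direction) and than in the diaphragm (76.1%), and 8 of 9 passed as lower than in the heart (76.4%). *Peg3* was the exception in the last contrast, at 24.3, 35.4 and 25.3 CPM in the liver against 21.0 to 81.8 CPM in the heart (log2 difference -0.58, SE 0.34, adjusted p = 0.14). *H19* had 22, 19 and 21 counts in the WT liver libraries, against 60431 to 102754 in those of the gastrocnemius. *Igf2* was read with 3, 2 and 1 counts, *Dlk1* with 1, 0 and 1, and *Nnat* with 0, 6 and 5. At this depth the liver values of those 3 genes sit near the counting floor of 3 counts and no fold is given. They entered the test only through the tissues where they are high, so their calls as lower add nothing beyond these counts.

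In the gastrocnemius *Peg3* and *Igf2* rose and *Dlk1* fell in the *Mtm1*-/y mice. That made 2 of 9 genes higher, where 14.1% of all genes tested were higher, and 1 of 9 lower, where 14.9% were lower. None of the 3 also passed an absolute log2 fold change of 1, the second threshold of the study, which 6.63% of all genes did. The median log2 fold change of the 9 genes was 0.45, beside 0.02 for all genes tested.

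*Peg3*, the zinc finger gene of the paternal chromosome 7 domain, had the steadiest response. It stood at 56.2, 56.1, 66.2 and 63.0 CPM in the WT libraries and at 98.9, 92.6, 76.0 and 81.5 CPM in the *Mtm1*-/y libraries. Every *Mtm1*-/y library was above every WT library, a rise of 0.51 on the log2 scale (SE 0.10, edgeR adjusted p = 0.00408). Libraries without overlap were seen for 2 of the 9 genes, *Peg3* and *Dlk1*, against 30.6% of all genes tested.

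*Igf2*, the growth factor, was at 2.73, 2.30, 1.77 and 4.09 CPM in WT and at 4.76, 3.76, 7.39 and 4.17 CPM in *Mtm1*-/y muscle. WT 4 lay above *Mtm1*-/y 2, so the groups overlapped. The log2 fold change was 0.87 (SE 0.29, adjusted p = 0.0462). *Igf2* had few counts, 55 to 119 per WT library, and its call sat close to the threshold. Without *Mtm1*-/y 1 or 3, or WT 1, 2 or 3, it no longer passed, with log2 fold changes of 0.90, 0.63, 0.86, 0.79 and 0.70.

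*Dlk1* was at 4.66, 3.46, 3.18 and 3.23 CPM in WT and at 1.96, 1.42, 2.57 and 2.80 CPM in *Mtm1*-/y gastrocnemius. The groups did not overlap, and the log2 fold change was -0.75 (SE 0.23, adjusted p = 0.0332). The call was lost without *Mtm1*-/y 1 or 2, or WT 1, 2 or 4, where the log2 fold changes were -0.69, -0.59, -0.62, -0.77 and -0.80.

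*H19* and *Mest* leaned upward without passing. *H19* stood at 3150.2, 2401, 2001 and 2127 CPM in WT and at 4036, 3500.3, 3119 and 2701 CPM in *Mtm1*-/y muscle. Only WT 1 overlapped the *Mtm1*-/y range, and the log2 fold change was 0.45 (SE 0.16, adjusted p = 0.0598). *Mest* ranged from 8.22 to 21.1 CPM in WT and from 17.4 to 29.1 CPM in *Mtm1*-/y (0.65, SE 0.25, adjusted p = 0.0762). By DESeq2, the tool of the study, both passed (adjusted p = 0.0289 and 0.0384), which made 4 of 9 genes higher and 1 lower. That tool called 12.4% of all genes higher and 13.3% lower.

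The remaining 4 genes did not pass by either tool. *Meg3* was at 110.2 to 128 CPM in WT, and its *Mtm1*-/y libraries split to both sides of that range at 81.7, 64.1, 154 and 134 CPM (log2 fold change -0.15, SE 0.24). *Plagl1* at -0.18 (SE 0.16) and *Cdkn1c* at 0.08 (SE 0.18) had adjusted p-values of 0.411 and 0.761. *Nnat* was at 2.18, 2.38, 0.803 and 12.4 CPM in WT and at 11.1, 5.41, 12.0 and 9.23 CPM in *Mtm1*-/y (1.07, SE 0.66, adjusted p = 0.248). WT 4 was inside the *Mtm1*-/y range, and without it *Nnat* passed at 2.39 (adjusted p = 0.00444).

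**Figure D2:**
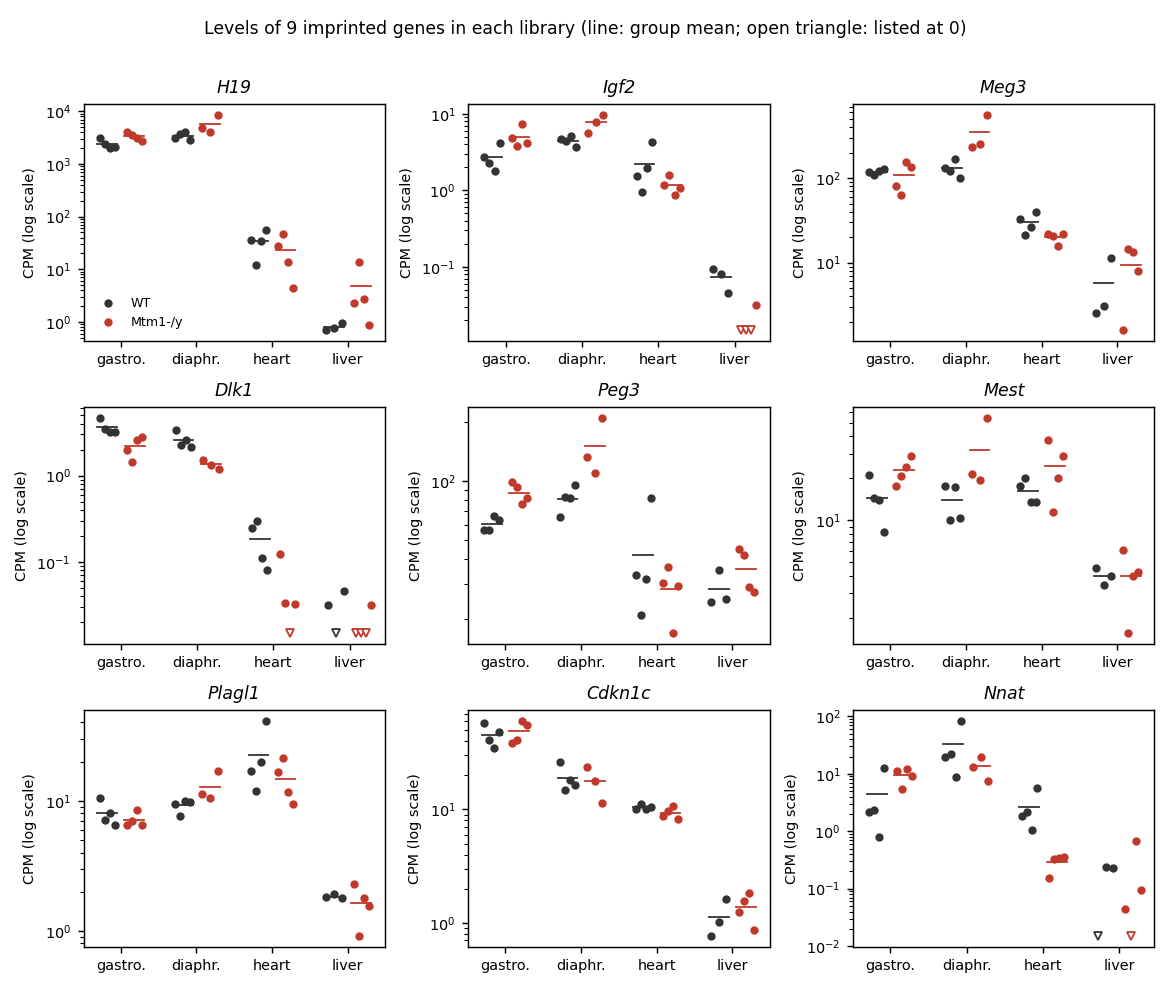
CPM of each of the 9 genes in every library on log axes, WT and *Mtm1*-/y side by side by tissue, with the group mean as a line. In the gastrocnemius the *Peg3* points of the 2 genotypes separate upward (56.1 to 66.2 against 76.0 to 98.9 CPM) and those of *Dlk1* downward.

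Gene lists that mark other cells and states moved in the same gastrocnemius libraries, where 14.1% of all genes tested rose and 14.9% fell. Of 17 genes of fetal and regenerating fibres 12 rose and 1 fell, among them *Myh3*, embryonic myosin, from 7.74 to 10.3 CPM in WT to 65.4 to 291 CPM in *Mtm1*-/y, while *Actc1*, cardiac actin, fell by 2.17 on the log2 scale. Of 20 fibroblast genes 12 rose and 0 fell, with summed levels of 4355 to 10061 CPM in WT and 6138 to 13393 CPM in *Mtm1*-/y libraries. Of 14 macrophage genes 13 rose, the sum going from 65.0 to 113 CPM in WT to 202 to 246 CPM. White adipocyte genes rose in 7 and fell in 3 of 21 cases, and their summed levels were 6002 to 7441 CPM in WT and 4897 to 6445 CPM in *Mtm1*-/y libraries, which overlap and lean lower. *Adipoq*, the adiponectin gene, was at 3.79 to 14.7 CPM in WT and at 15.2 to 24.2 CPM in *Mtm1*-/y. With an adipocyte score as a covariate only *Peg3* still passed. That score holds *Adipoq*, which did not overlap between genotypes, so the fit cannot separate adipocyte RNA from genotype. *Igf2* was then at 0.29 and *Nnat* at -0.18, while *Dlk1* was at -1.09 and missed the threshold (adjusted p = 0.0741). The part of these cells in the changes of *Igf2*, *Peg3* and *Dlk1* was not tested.

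In the diaphragm 7 of the 9 genes had *Mtm1*-/y and WT libraries without overlap, 6 of them higher and *Dlk1* lower, against 10.0% of all genes tested. By edgeR 0 of the 9 passed at an adjusted p under 0.05, as did 0.0119% of all 16796 genes. At an unadjusted p under 0.05 there were 7 of 9, against 10.8% of all genes. DESeq2 called 3 higher, *Meg3*, *Peg3* and *Igf2*, where it called 1.70% of all genes higher, and 1 lower, *Dlk1*, where it called 0.670% lower. By limma voom the count was 0. The median log2 fold change of the 9 genes was 0.78 and that of all genes -0.01.

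*Meg3* had the largest difference that DESeq2 called. It was at 134, 121, 168 and 102 CPM in WT and at 232, 254 and 561 CPM in *Mtm1*-/y libraries 1, 2 and 4. It was higher by 1.43 on the log2 scale (SE 0.35, edgeR adjusted p = 0.279, DESeq2 adjusted p = 0.00448). *Mtm1*-/y 4 was far above the other 2, and without it the value was 0.90.

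The non-coding RNAs downstream of *Meg3* were also higher in each *Mtm1*-/y diaphragm library than in any WT library, and highest in *Mtm1*-/y 4. *Rian* was at 60.7 to 127 CPM in WT and at 222, 172 and 539.8 CPM in *Mtm1*-/y diaphragm, higher by 1.77 on the log2 scale (SE 0.44, DESeq2 adjusted p = 0.00314). *Mirg* was at 6.26 to 12.1 CPM and at 24.9, 19.4 and 58.8 CPM (1.96, SE 0.42, DESeq2 adjusted p = 0.000513). *Dio3*, the deiodinase gene that closes the domain, differed by 3.65 (SE 0.74, DESeq2 adjusted p = 0.00052). None of these 3 passed by edgeR, where the adjusted p-values were 0.265 to 0.279. In the gastrocnemius *Dio3* rose by 1.79 (SE 0.39, adjusted p = 0.00817), while *Rian* and *Mirg* were at -0.12 and 0.11.

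*Dlk1*, in the same domain, had the sign opposite to that of *Meg3*, *Rian*, *Mirg* and *Dio3*. Its levels were 3.36, 2.26, 2.60 and 2.14 CPM in WT and 1.51, 1.33 and 1.20 CPM in *Mtm1*-/y diaphragm. The value of -0.93 (SE 0.22, adjusted p = 0.279, DESeq2 adjusted p = 0.0308) had the sign of the -0.75 in the gastrocnemius.

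**Figure D3:**
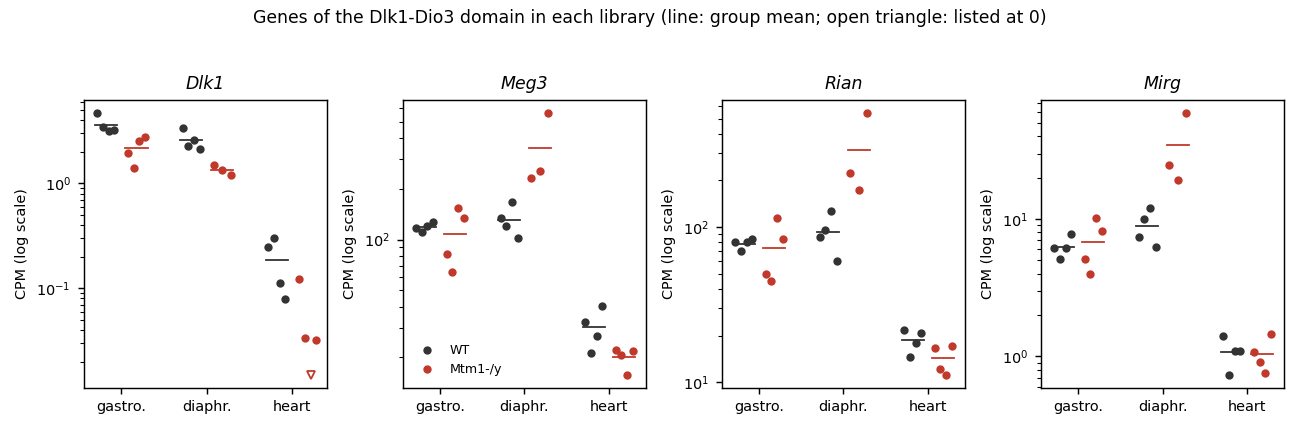
CPM on log axes of *Dlk1*, *Meg3*, *Rian* and *Mirg* in every gastrocnemius, diaphragm and heart library, with group means as lines and open triangles for a count of 0. In the diaphragm the 3 *Mtm1*-/y libraries lie above all WT libraries for *Meg3*, *Rian* and *Mirg* and below them for *Dlk1*.

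*Peg3* in the diaphragm was at 65.3, 82.9, 81.5 and 95.2 CPM in WT and at 132, 109.6 and 209 CPM in *Mtm1*-/y libraries (log2 fold change 0.90, SE 0.24, adjusted p = 0.293, DESeq2 adjusted p = 0.0295). *Igf2* was at 4.61, 4.42, 5.14 and 3.63 CPM and at 5.69, 7.89 and 9.66 CPM (0.82, SE 0.22, adjusted p = 0.293, DESeq2 adjusted p = 0.0391). Both differences had the sign seen in the gastrocnemius. *H19* was at 3059, 3646, 4041 and 2898 CPM and at 4813, 4066 and 8569 CPM (0.78, SE 0.32, adjusted p = 0.44). *Mest* had 10.0 to 17.7 CPM in WT and 21.4, 19.4 and 54.1 CPM in *Mtm1*-/y (1.21, SE 0.42, adjusted p = 0.39), and *Plagl1* 7.70 to 9.98 CPM and 11.2, 10.4 and 16.95 CPM (0.50, SE 0.20, adjusted p = 0.45). *Mtm1*-/y 4 was the highest library for all 6 of the genes with higher levels. *Cdkn1c* at -0.10 (SE 0.29) and *Nnat* at -1.31 (SE 0.78) overlapped between genotypes, *Nnat* being at 83.6 CPM in WT 4 and at 7.43 to 22.1 CPM in the other 6 libraries.

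Without *Mtm1*-/y 4 the log2 fold changes of *H19*, *Peg3*, *Mest*, *Plagl1*, *Igf2* and *Dlk1* were 0.39, 0.58, 0.57, 0.24, 0.62 and -0.85. DESeq2 then called only *Meg3*, and likewise without WT 1 or WT 2. Without *Mtm1*-/y 1 it called *Igf2* and *Meg3*, and without WT 4 *Meg3* and *Peg3*. *Mtm1*-/y 4 also had the most *Myh3*, at 221 CPM, against 6.03 and 55.2 CPM in *Mtm1*-/y 1 and 2 and 1.55 to 3.62 CPM in WT. Summed fibroblast genes were at 3919 to 6039 CPM in WT and at 6448 to 11765 CPM in *Mtm1*-/y, and 7 of 20 passed by DESeq2. White adipocyte genes had sums of 9432 to 13029 CPM in WT and 5880.2 to 8329 CPM in *Mtm1*-/y libraries, without overlap, and 6 of 21 were lower at an unadjusted p under 0.05, none of them called by either tool. *Nnat*, at -1.31, had the same sign as the difference of the sums. Of 18 proliferation genes 11 were higher at an unadjusted p under 0.05, and 2 by DESeq2. Of all genes 10.8% passed that unadjusted threshold in either direction, and DESeq2 called 1.70% higher. The part of these cells in the imprinted genes' differences was not tested. Leaving out the 4 libraries high in *Alb* left 1 WT and 2 *Mtm1*-/y diaphragm libraries, which were fitted together with those of the other tissues. In that joint fit the log2 fold changes were 0.73 for *H19*, 0.58 for *Igf2*, 1.25 for *Meg3*, 1.07 for *Peg3*, 1.13 for *Mest*, 0.50 for *Plagl1* and -0.94 for *Dlk1*. These 7 genes did not overlap between genotypes, so no choice of libraries could turn their signs. Only the sizes could change, and they rest on 1 WT library and on a fit unlike that within the diaphragm.

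**Figure D4:**
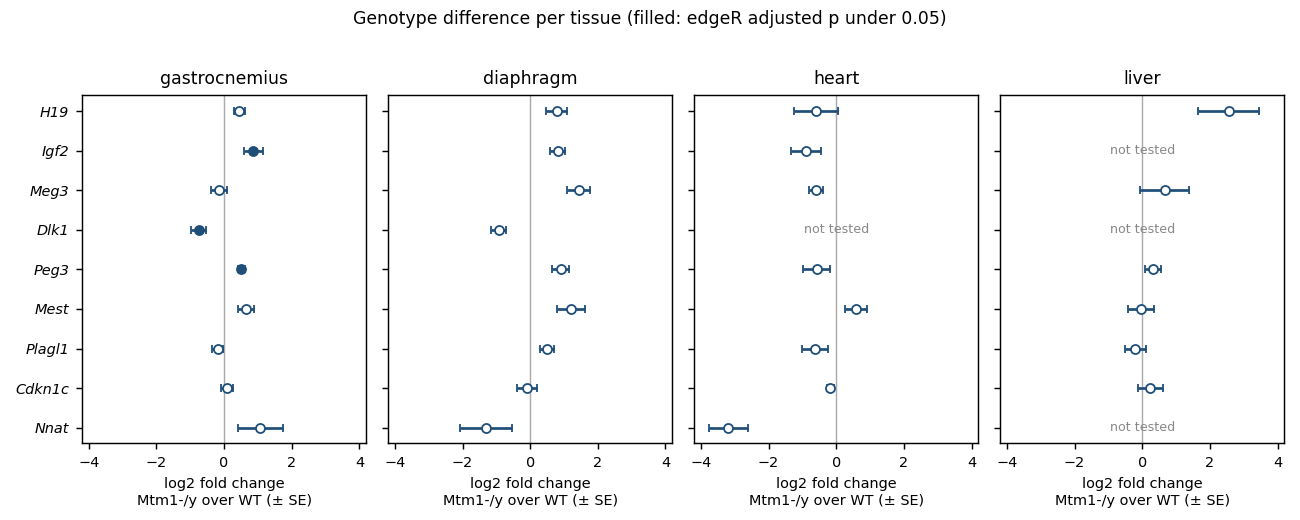
Log2 fold change, *Mtm1*-/y over WT, of each gene tested in the 4 tissues, with bars of 1 SE from edgeR, where the filled points passed at an adjusted p under 0.05. The filled points are *Peg3*, *Igf2* and *Dlk1* in the gastrocnemius, while the diaphragm points of *Meg3* (1.43) and *Mest* (1.21) lie further from 0 but are open.

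In the heart *Nnat* was the gene that stood apart. It was at 1.84, 2.18, 1.04 and 5.74 CPM in WT and at 0.153, 0.336, 0.346 and 0.353 CPM in *Mtm1*-/y libraries, the latter from 5, 10, 10 and 11 counts. The groups did not overlap, which held for 1 of the 8 genes tested against 3.98% of all genes. The log2 fold change was -3.19 (SE 0.57), with an adjusted p of 0.353 by edgeR and of 1.3e-05 by DESeq2. The *Mtm1*-/y counts lie near the filter's minimum count of 10. *Nnat* entered the edgeR test through the WT hearts, where it is higher, so its p-values add little beyond these counts. By edgeR 0 of 8 genes passed (0.00656% of all 15238 genes), and at an unadjusted p under 0.05 there were 2, *Nnat* and *Meg3*, against 8.88% of all genes. DESeq2 called *Nnat* alone, where it called 0.453% of all genes, and voom called 0.

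White adipocyte genes were lower in the same *Mtm1*-/y heart libraries. *Adipoq* was at 18.0, 5.90, 6.94 and 18.8 CPM in WT and at 2.72, 2.42, 1.42 and 2.44 CPM in *Mtm1*-/y hearts. Of the 19 white adipocyte genes tested there, 8 passed as lower by DESeq2 and 0 by edgeR, while their summed level, led by genes that heart muscle also uses, was 5636 to 8438 CPM in WT and 7918 to 9131 CPM in *Mtm1*-/y. With an adipocyte score as a covariate the *Nnat* value was -1.69. *Adipoq*, which that score holds, did not overlap between genotypes here, so this fit cannot separate adipocyte RNA from genotype. Across all 30 libraries, after the mean of each tissue was taken out, *Nnat* correlated with that score at r = 0.84, while the other 8 genes had r between -0.33 and 0.40. The libraries share tissue and genotype, so this is a description.

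**Figure D5:**
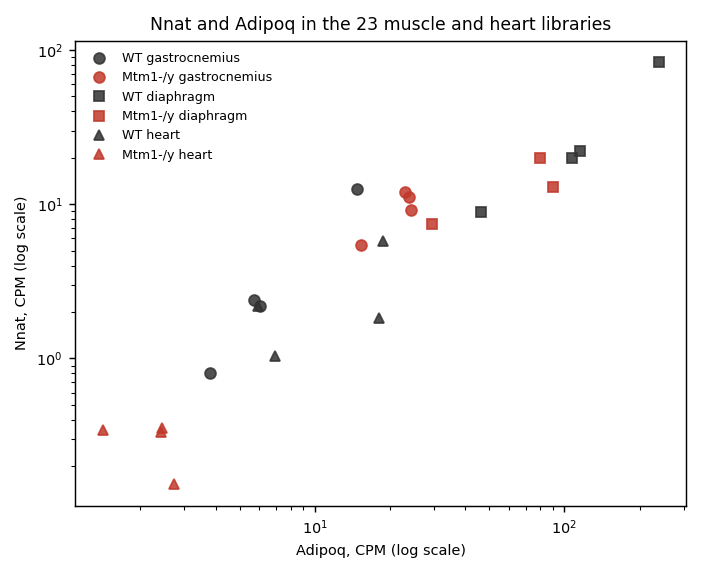
*Nnat* against *Adipoq*, both in CPM on log axes, in the 23 gastrocnemius, diaphragm and heart libraries, with symbols for tissue and colours for genotype. The 4 *Mtm1*-/y hearts sit at the lower left (*Adipoq* 1.42 to 2.72, *Nnat* 0.153 to 0.353 CPM) and WT diaphragm 4 at the upper right.

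The other heart values were lower in *Mtm1*-/y for 6 of 7 genes tested, with none past the threshold. *Meg3* stood at 32.5, 21.2, 26.6 and 40.1 CPM in WT and at 22.0, 20.5, 15.8 and 21.8 CPM in *Mtm1*-/y (-0.60, SE 0.20, adjusted p = 0.546). *Igf2* at -0.90, *H19* at -0.60, *Peg3* at -0.58, *Plagl1* at -0.62 and *Cdkn1c* at -0.17 had adjusted p-values of 0.546 to 0.695, and *Mest* was at 0.59. WT heart 4 had the most *H19*, *Igf2*, *Meg3*, *Peg3*, *Plagl1* and *Nnat* of all 8 hearts, and the most fibroblast RNA, a sum of 7610.2 CPM. Without it the log2 fold changes of *Peg3*, *Plagl1* and *Igf2* were -0.02, -0.15 and -0.34. *Dlk1*, with 0 to 11 counts in the hearts, was too low to test.

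In the liver 0 of the 6 genes tested passed by edgeR, as did 0% of all 14305 genes. At an unadjusted p under 0.05 there was 1, *H19*, against 4.24% of all genes, and DESeq2 (0.163% of all genes) and voom called 0. *H19* was at 0.699, 0.770 and 0.966 CPM in WT and at 2.30, 13.7, 2.68 and 0.890 CPM in *Mtm1*-/y livers (log2 fold change 2.55, SE 0.90, adjusted p = 0.969). *Mtm1*-/y liver 2 held the *H19* maximum and also the most *Acta1*, the actin of skeletal muscle, at 47.1 CPM. Without it the value was 1.21. *Peg3* at 0.31, *Meg3* at 0.66, *Cdkn1c* at 0.24, *Plagl1* at -0.20 and *Mest* at -0.05 overlapped between genotypes, as did all 6 genes, where 6.05% of all genes were without overlap. *Igf2* had 0, 0, 0 and 1 counts, *Dlk1* the same, and *Nnat* 1, 0, 16 and 3 in the *Mtm1*-/y livers.

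Whether the genotype effect differed between tissues was tested directly. These contrasts share the gastrocnemius libraries. Between heart and gastrocnemius 2 of the 8 genes that could be tested within the heart passed, against 19.8% of all genes tested. The *Igf2* effect in the heart minus that in the gastrocnemius was -1.75 on the log2 scale (SE 0.55, adjusted p = 0.0378), and for *Nnat* it was -4.24 (SE 1.04, adjusted p = 0.0115). The *Igf2* call was lost without *Mtm1*-/y gastrocnemius 1 or 3, WT gastrocnemius 1, 2 or 3, *Mtm1*-/y heart 1, 3 or 4, or WT heart 4, where the difference lay between -1.20 and -1.77. No single library ended the *Nnat* call, but it rests on *Mtm1*-/y hearts near the counting floor, at 0.153 to 0.353 CPM.

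Between diaphragm and gastrocnemius 0 of the 9 passed by edgeR (0.280% of all genes). At an unadjusted p under 0.05 there were 2, *Meg3* and *Plagl1* (12.8% of all genes), and DESeq2 called *Meg3* alone (2.04%). For *Meg3* the difference of the effects was 1.57 (SE 0.45, adjusted p = 0.184, DESeq2 adjusted p = 0.0231), and for *Rian* it was 1.88 (SE 0.53, DESeq2 adjusted p = 0.0192). *Dlk1*, *Igf2* and *Cdkn1c* had differences of -0.19, -0.06 and -0.19, with SE of 0.32, 0.40 and 0.35. Between liver and gastrocnemius 0 of the 6 genes that could be tested within the liver passed (6.34%), with 1 at an unadjusted p under 0.05, *H19* (22.3%), and 0 by DESeq2 (11.9%). For *Igf2*, *Dlk1* and *Nnat*, which enter that fit only through the gastrocnemius, no difference of effects is given.

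Other imprinted genes were spread to both sides in the gastrocnemius. Of 67 matched by symbol, 54 were tested, of which 16 rose and 9 fell, with a median log2 fold change of 0.07. Of all genes tested there 14.1% rose and 14.9% fell. *Tnfrsf23*, a decoy receptor gene near *Cdkn1c*, rose by 2.10 (SE 0.20, adjusted p = 0.000175) and *Osbpl5*, an oxysterol-binding protein gene of the same cluster, by 0.55. *Calcr*, the calcitonin receptor of quiescent satellite cells, fell by 3.61 (SE 0.35, adjusted p = 0.000184). *Slc38a4*, an amino acid transporter gene, fell by 1.24 and *Snrpn*, a splicing factor gene, by 0.80. Of the genes next to the 9, *Zim1* beside *Peg3* rose by 0.49 and *Copg2*, which overlaps *Mest*, by 0.24, while *Usp29* at -0.15, *Blcap* at -0.13 and *Kcnq1ot1* at 0.08 did not pass. Of 15 genes placed around *Plagl1* in the imprinted gene network, 8 of which are described above, 5 rose and 2 fell. In the diaphragm 0 of 57 other imprinted genes passed by edgeR, where an unadjusted p under 0.05 gave 11 higher and 3 lower, and DESeq2 5 and 1. Of all genes 10.8% passed that unadjusted threshold in either direction, and DESeq2 called 1.70% higher and 0.670% lower.

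The IGF axis, through which *Igf2* signals, had 6 genes that rose and 2 that fell among 20 tested in the gastrocnemius. Of all genes tested there 14.1% rose and 14.9% fell. *Igf2r*, the imprinted receptor that clears *Igf2*, was at 112 to 128 CPM in WT and rose to 140.2 to 165 CPM (0.29, SE 0.07, adjusted p = 0.0148). *Igfbp2* and *Igfbp4*, which encode IGF-binding proteins, rose by 2.10 and 0.58, and *Pappa2*, a protease that cleaves such proteins, by 1.87. *Igf2bp2*, whose product binds *Igf2* mRNA, rose by 1.41 (SE 0.28, adjusted p = 0.00519). *Insr*, the insulin receptor gene, fell by 0.40. *Igf1* at -0.23 and *Igf1r* at 0.16 did not pass. In the diaphragm 0 of 21 passed by edgeR, 5 were higher at an unadjusted p under 0.05, and 4 were higher by DESeq2, *Pappa2* at 3.18 and *Igf2bp2* at 1.85 among them. Of all genes 10.8% passed that unadjusted threshold in either direction, and DESeq2 called 1.70% higher.

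Of 14 genes of the Notch and delta-like family, to which *Dlk1* belongs, 2 rose and 4 fell in the gastrocnemius. The shares of all genes tested were 14.1% higher and 14.9% lower, for this and the next 2 lists. *Dll1*, a Notch ligand gene, rose by 0.74, and the receptor genes *Notch3* and *Notch4* fell by 0.50 and 0.76, *Dll4* by 0.40. *Dlk1* was the other gene that fell, and *Dlk2*, its paralogue, rose by 1.78 (SE 0.52, adjusted p = 0.0287). Among 6 kinase inhibitor genes, *Cdkn1c* itself included, *Cdkn1a* rose by 1.60 (SE 0.26, adjusted p = 0.00182) and no other passed. Among 14 genes that maintain imprints, *Dnmt1*, the maintenance methyltransferase gene, rose by 0.34, while *Dnmt3a*, *Ctcf* and *Tet1* fell by 0.64, 0.18 and 0.37.

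The remaining lists give the setting of the muscle libraries. Their gastrocnemius counts stand beside 14.1% of all genes tested that rose and 14.9% that fell. In the gastrocnemius 14 of 15 denervation genes rose and 0 fell, 6 of 18 proliferation genes rose and 1 fell, and 4 of 16 satellite cell and myoblast genes rose and 3 fell, *Pax7* of satellite cells by a decrease of 1.05 and *Myog* of differentiating myoblasts by an increase of 1.85. Endothelial genes fell in 5 of 12 cases, smooth muscle and pericyte genes fell in 4 and rose in 1 of 12, and hepatocyte genes fell in 5 and rose in 1 of 23. Tendon genes rose in 2 of 10, Schwann cell and nerve genes in 1 of 11, and genes of fetal mRNA-binding proteins in 1 of 5 cases, with none lower. In the diaphragm, heart and liver 0 genes of any of these lists passed by edgeR. At an unadjusted p under 0.05, 12 of 17 genes of fetal and regenerating fibres were higher in the diaphragm (9 by DESeq2), as were 12 of 20 fibroblast genes, and in the heart 18 of 24 hepatocyte genes were higher (4 by DESeq2). At that threshold 10.8% of all genes passed in the diaphragm and 8.88% in the heart, in either direction. DESeq2 called 1.70% of all genes higher in the diaphragm and 0.453% in either direction in the heart.

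Finally, the genes whose levels followed each of the 9 most closely were found by Pearson's r of log2 CPM over the 30 libraries, with tissue means taken out, among 13310 genes. *Meg3* went with *Rian* (r = 0.96) and *Mirg* (0.87), its neighbours. *Nnat* went with *Plin1*, *Slc7a10* and *Cfd* (0.86, 0.86 and 0.85), of which *Plin1* and *Cfd* are adipocyte genes. *Peg3* went with *Myh8*, perinatal myosin (0.84), *Olfm1* and *Tceal9*. The closest to *H19* was *Phc1* (0.76), to *Igf2* *Shisal1* (0.79), to *Mest* *Itga9* (0.81), to *Plagl1* *Creb3l2* (0.84) and to *Cdkn1c* *Pkn3* (0.67). For *Dlk1* it was *Mtm1* itself (0.72), the deleted gene. Genotype was not taken out, so genes that differ between genotypes can correlate through it, and *Mtm1* separates the genotypes in every tissue. All these r values are therefore a description. Among the 9, the pairs *H19* and *Peg3* (0.59), *Peg3* and *Plagl1* (0.58), *Igf2* and *Plagl1* (0.57) and *Igf2* and *Peg3* (0.56) were closest, while *H19* and *Igf2*, neighbours on chromosome 7, had r = 0.15 and *Dlk1* and *Meg3* 0.04.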

How the data were processed

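RNA-seq of 30 libraries was used (TruSeq Stranded mRNA, 350 ng of RNA, 50-base single reads). Per the study's methods, the authors used cutadapt 1.10 for trimming, STAR 2.5.3a for alignment (mm10) and HTSeq 0.6.1p1 for counting on Ensembl 96 genes, and deposited raw read counts for 36103 genes. Groups came from the sample titles, and 0 columns belonged to other samples. No pair of libraries was identical. Genes were filtered (filterByExpr, minimum count 10), scaled by TMM and tested within each tissue with the quasi-likelihood F test of edgeR 4.0.16 in R 4.3.3, with Benjamini-Hochberg adjustment over all genes tested and a threshold of 0.05. Contrasts between WT tissues and between genotype effects used the same test. DESeq2 1.42.0 (the study's tool), limma voom 3.58.1, other scaling, no filter, a replicate block, cell-type scores as covariates and leaving out libraries were alternatives. Scripts were tested on simulated data. Exon lengths came from GENCODE M21. Cells' RNA, alleles and mature microRNAs were not measured separately.

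The 9 genes and the gene lists were chosen with earlier results of these data known. All 9 are named in every tissue. Each list gave up to 5 names, the genes with the lowest p in the gastrocnemius past the threshold, with the neighbours of the 9 genes, the tissue markers and the 3 genes most like each in pattern. *Igf1*, *Igf1r*, *Adipoq* and *Myh3* were named after their values were seen where the rule did not name them.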

Additional observations from a re-analysis of the deposited data

Results flagged for a closer look

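Of 54 groups of 4 libraries, 6 held a value of one of the 9 genes that stood far from the rest of its group. Chance gives about 5% for values on a continuous scale, but a count of 1 beside 3 counts of 0 is always picked, which is the case for *Igf2* and *Dlk1* here. *H19* in *Mtm1*-/y liver 2 was at 13.7 CPM, against 0.890 to 2.68 CPM in the other 3. In the same tissue *Igf2* and *Dlk1* in *Mtm1*-/y liver 4 were at 0.0318 CPM, 1 count each, beside 0 counts in the other 3, which is no difference at this depth. *Nnat* in *Mtm1*-/y liver 3 was at 0.680 CPM, and *Adipoq* in that library at 2.51 CPM against 0.137 CPM or less in every other liver. *Nnat* in WT gastrocnemius 4 was at 12.4 CPM, with *Adipoq* at 14.7 CPM, both the highest of the WT gastrocnemius libraries. *Nnat* in *Mtm1*-/y heart 1 was at 0.153 CPM, 5 counts, below the 10 or 11 counts of the others.

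The genotype effect in the heart minus that in the gastrocnemius passed the test of the difference for *Igf2* (-1.75 on the log2 scale) and *Nnat* (-4.24). The *Nnat* value rests on few counts in the *Mtm1*-/y hearts.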

How the results depend on the processing

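Of 800 values recomputed under alternatives, 703 kept their direction and their side of the threshold, or their count within 1.5 times, 29 lost a call, 14 gained a call, 37 counts moved and 17 values reversed. A value that was not called could not lose a call. In the gastrocnemius the call was lost in 9 of 15 alternatives for *Igf2*, 9 of 15 for *Dlk1* and 1 of 15 for *Peg3*. The difference between heart and gastrocnemius lost its call in 10 of 21 alternatives for *Igf2* and in 0 of 21 for *Nnat*. *Peg3* in the gastrocnemius passed under every alternative but the joint fit of all 30 libraries (adjusted p = 0.273). The 3 genes called in the gastrocnemius became 5 by DESeq2, 5 by limma voom, 1 with no filter on low counts, 1 with the adipocyte score, 0 in the joint fit, 0 with the added fold change threshold, and 1 to 4 without a single library. Of 8 IGF axis genes called there, 4 passed with the fold change threshold, 2 in the joint fit and 5 with the adipocyte score; of 25 other imprinted genes, 6, 14 and 8 did. The 0 calls became 4 by DESeq2 in the diaphragm (1 to 5 without a single library) and 1 in the heart (1 to 2). The count of effects that differed from the gastrocnemius was 1 by DESeq2 in the diaphragm, 1 with no filter in the heart, 1 to 3 there without a single library and 0 to 1 in the liver, where the gene was *Igf2*, near its counting floor. For WT diaphragm against gastrocnemius the count was 1 to 4 without a single library.

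Reversed signs arose only for values that were not called. With the adipocyte score the heart values were 1.31 for *H19*, 0.58 for *Igf2*, 0.45 for *Meg3*, 1.35 for *Peg3* and 0.65 for *Plagl1*, and the gastrocnemius values -0.26 for *Cdkn1c* and -0.18 for *Nnat*. *Adipoq*, which that score holds, did not overlap between genotypes in either tissue. By voom *Cdkn1c* in the diaphragm was at 0.07 and *Mest* in the liver at 0.02. Without single libraries *Cdkn1c* in the diaphragm ranged from -0.34 to 0.14 and in the gastrocnemius from -0.03 to 0.21, *Meg3* in the gastrocnemius from -0.36 to 0.04 and *Mest* in the liver from -0.36 to 0.21. Without the 4 diaphragm libraries high in *Alb*, in a joint fit of all tissues chosen after the data were seen, *Nnat* in the diaphragm was at 0.21. The cause of these changes was not tested.

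Equal replicate numbers did not pair WT with *Mtm1*-/y libraries. Deviations of same-numbered WT and *Mtm1*-/y libraries correlated above 0.1 in 1 of 4 gastrocnemius pairs, and at -0.73 to 0.57 in the diaphragm. WT libraries were closest to the *Mtm1*-/y library of their own number in 2 of 4 gastrocnemius, 1 of 3 diaphragm, 1 of 4 heart and 2 of 3 liver cases. Between tissues of the same genotype, 3 of 4 pairs of WT diaphragm and heart passed 0.1, and 2 of 4 of WT gastrocnemius and heart. For WT gastrocnemius and diaphragm it was 1 of 4, and for *Mtm1*-/y gastrocnemius and heart 0 of 4. Whether such libraries shared a mouse is not known. With the replicate block the gastrocnemius calls were 2, *H19* and *Peg3*. Size factors of DESeq2 in place of TMM shifted the median gene by 0.0141 or less on the log2 scale. Depth limits *Dlk1*, *Igf2* and *Nnat* in the liver, *Dlk1* in the heart and *Nnat* in the *Mtm1*-/y heart, at 0 to 16 counts a library.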
